A study of Sus scrofa with 12 samples.

Results

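Aquaporins are membrane channels for water and, in some members, for glycerol and other small solutes, and 7 of their genes were followed here in the endometrium of gestating sows. AQP1, AQP3, AQP4, AQP5, AQP8, AQP9 and AQP11 were taken by name from the 20674 genes of the expression table, and 4 of the 7 (AQP1, AQP3, AQP9 and AQP11) were among the 15351 genes with enough reads to be tested. The animals were Landrace × Yorkshire sows, fed from breeding through 114 days of gestation. L − N received a low-fiber diet with 3.73% crude fiber, and L + N the same diet with 0.05% N-carbamylglutamate (NCG), an activator of arginine synthesis. H − N received a high-fiber diet with 7.46% crude fiber, and H + N that diet with 0.05% NCG. Poly(A) RNA was sequenced from 3 libraries per group, 12 in all, with 14369781 to 19309724 reads counted on genes (median 16224088). Levels are given as CPM, the reads of a gene scaled to a common library total after TMM normalization, which levels differences in composition between libraries, and between genes as FPKM, which also divides by the length of the gene model.

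The libraries carried the markers of endometrium. All 9 epithelial markers passed the filter on low counts, with KRT8 as the most abundant (108 to 270 FPKM), and so did all 8 stromal markers, led by COL3A1 (1910 to 6000 FPKM). Of the 7 markers of uterine glands, 5 passed, and PAEP did not exceed 3 counts in any library. Trophoblast markers summed to 0.777 to 3.77 FPKM, and PAG6, CDX2 and CYP19A1 did not exceed 3 counts in any library. In this bulk tissue, fewer cells of a type and less RNA per cell cannot be told apart.

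Before the comparisons, 2 libraries have to be named. L − N replicate 1 differed from replicates 2 and 3 of its group by a root mean square of 0.872 and 0.727 on the log2 scale over genes, while these 2 differed from each other by 0.596. Its smooth muscle markers summed to 2810 FPKM, against 871 and 971 in the other L − N libraries, and its macrophage markers to 767 FPKM, against 1860 and 1910. H − N replicate 3 differed from replicates 1 and 2 by 0.782 and 0.803, and these from each other by 0.535. Its neutrophil markers summed to 295 FPKM, against 22.9 and 7.94, and its gland markers to 883 FPKM, against 202 and 139. The gland sum was 1 gene, SPP1, at 803 FPKM against 98.8 and 46.2, while ACP5 was lower there (63.0 CPM) than in the other 2 (96.5 and 76.4 CPM). Within L + N the differences were 0.491 to 0.538, and within H + N 0.589 to 0.721.

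The orthodox water channels AQP1, AQP4, AQP5 and AQP8 pass mainly water along an osmotic gradient that ion transport sets up. The aquaglyceroporins AQP3 and AQP9 also let glycerol through, and AQP11 is an unorthodox member that resides largely on membranes inside the cell. In the uterus, AQP1 is known from vessels and muscle and AQP3 and AQP5 from epithelia, and the family is studied for its part in endometrial fluid and swelling over the cycle and pregnancy.

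Over the 12 libraries the 7 genes ranged from among the most abundant to not detectable. AQP3 had a mean of 127 FPKM (20.1 to 313) and ranked 394th in the table by mean FPKM, above 98.1% of the genes. AQP1 had a mean of 68.2 FPKM (37.9 to 120) and ranked 831st. This order rests on the model lengths of 892 bases for AQP3 and 3190 for AQP1, and by reads AQP1 was higher (42595 against 22333 in all, and in 11 of 12 libraries). The ranges of these top 2 overlapped, and the ratio of AQP3 to AQP1 in FPKM ran from 0.303 in L − N replicate 2 to 3.69 in H − N replicate 2. AQP3 was above AQP1 in all 3 libraries of H − N (ratios 3.47, 3.69 and 2.31), in L − N replicate 1, L + N replicates 1 and 2 and H + N replicates 2 and 3, and below it in the other 4 libraries.

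AQP11 followed with a mean of 7.84 FPKM (5.25 to 10.01), below every AQP1 and AQP3 value, and AQP9 with 1.16 FPKM (0.630 to 1.85), below every AQP11 value. AQP5 had a mean of 0.214 FPKM and a highest value of 0.472, below the lowest of AQP9. AQP4, at 0.0189 FPKM, and AQP8, at 0.00699 FPKM, came last. AQP5 was above both in 11 of the 12 libraries, and the order of AQP4 and AQP8 was not resolved at this depth. AQP1 and AQP3 together held 94.0% to 98.4% of the reads on the annotated aquaporin genes of each library, and all of these genes together took 0.0197% to 0.0673% of a library's reads.

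**Figure D1:**
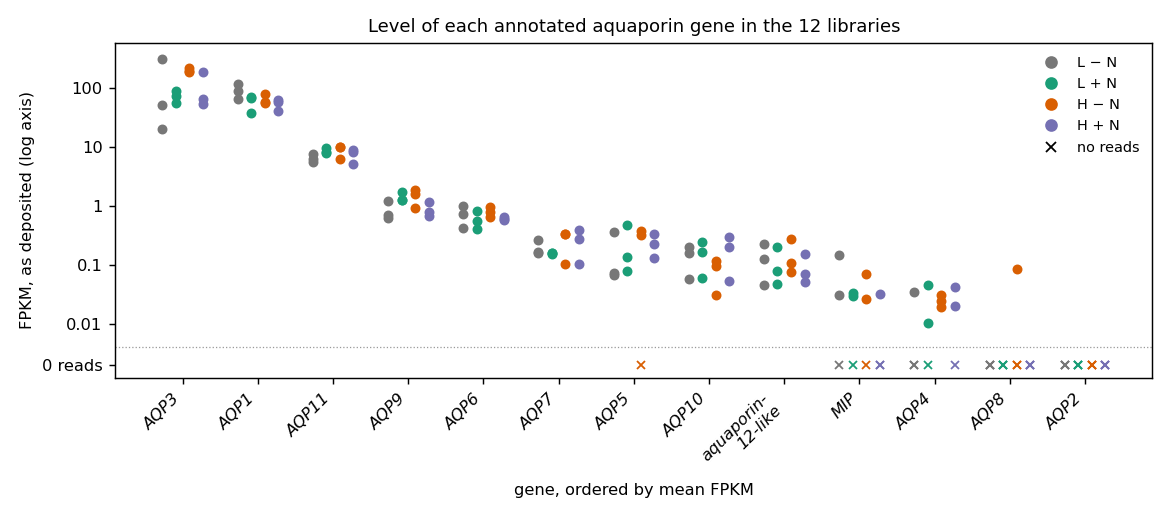
FPKM (log axis) of each annotated aquaporin gene in the 12 libraries, ordered by mean FPKM and colored by group, with crosses for libraries without a read. AQP3 and AQP1 lie together at the top, AQP11 and AQP9 follow without overlap, and AQP4 and AQP8 sit near or at 0 reads.

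The other aquaporins listed for comparison were MIP, AQP2, AQP6, AQP7 and AQP10, and AQP12A and AQP12B were not in the table under those names. LOC110257044, annotated as aquaporin-12-like, had 63 reads and a mean of 0.122 FPKM, and its reads are part of the aquaporin total above. AQP6, a channel of intracellular vesicles that also passes anions, had a mean of 0.683 FPKM, and its range (0.407 to 0.991 FPKM) overlapped that of AQP9. AQP7, an aquaglyceroporin, had 0.217 FPKM, AQP10 0.140, and MIP, the channel of the lens, 0.0308. AQP2, the vasopressin-regulated channel of the kidney collecting duct, had 0 reads in all 12 libraries, where up to 3 counts (0.155 to 0.209 CPM on the raw library totals, before TMM) could go unseen by counting error alone. AQP7 overlaps NFX1 and MIP overlaps SPRYD4 in the annotation. The paper describes strand-specific libraries, but whether the counting used the strand was not stated, so the reads of these 2 genes are uncertain. None of the 7 genes followed here overlaps another gene. In edgeR, AQP6 and AQP7 were the 2 that could be tested, and 0 were called in any of the 8 contrasts, with 0 at an unadjusted p under 0.05 and 0 called by DESeq2.

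AQP1, the classic water channel of red blood cells and vascular endothelium, lies on chromosome 18 of Sscrofa11.1 at chr18:42063482-42076741 on the minus strand. Its CPM was 385, 225 and 309 in replicates 1 to 3 of L − N and 204, 117 and 221 in those of L + N. It was 177, 191 and 276 in H − N, and 205, 180 and 135 in H + N. The 3 L − N libraries all lay above every L + N and every H + N library, while the H − N group overlapped with L − N through its replicate 3 and with both NCG groups. Group means were 306 ± 80.4, 180 ± 55.7, 214 ± 53.6 and 173 ± 35.3 CPM (SD, n = 3 each) for L − N, then L + N, then H − N, and last H + N.

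The tests compared groups in one edgeR quasi-likelihood model with Benjamini-Hochberg adjustment over all 15351 genes, and a gene is said to be called at an adjusted p under 0.05 and an absolute log2 fold change above 1. In the test of any difference among the 4 groups, called means the adjusted p alone. In L + N against L − N, AQP1 had a log2 fold change of −0.76 (95% confidence interval −1.38 to −0.15; edgeR adjusted p = 0.105), and in H + N against L − N one of −0.82 (−1.43 to −0.21; edgeR adjusted p = 0.0858). H − N against L − N gave −0.51 (−1.12 to 0.10; edgeR adjusted p = 0.281). These comparisons share the L − N libraries, so they are not independent of each other. For NCG against no NCG over both diets the value was −0.54 (−0.97 to −0.10; edgeR adjusted p = 0.127), and for high against low fiber −0.29 (−0.72 to 0.14). None was called. Without L − N replicate 1 the values against L − N were −0.31 for H − N, −0.56 for L + N and −0.62 for H + N. DESeq2 gave adjusted p = 0.0443 for L + N and 0.0289 for H + N against L − N, at −0.78 and −0.84 and so short of the fold threshold, while over all 16 alternatives the adjusted p ran from 0.0443 to 0.3 and from 0.0289 to 0.217. A p that misses the threshold does not show that the values did not differ, and the intervals of the 3 comparisons with L − N reached beyond −1.

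Markers of the cells in which AQP1 is known are given beside it, most of them not called. Among the blood endothelial markers, 7 of 8 were lower in L + N and in H − N than in L − N, and 6 of 8 in H + N. Their summed level was 380, 255 and 303 FPKM in L − N, 241, 193 and 215 in L + N, 257, 275 and 241 in H − N, and 228, 288 and 222 in H + N, with PECAM1 as the most abundant. All 8 passed the filter. PECAM1, an adhesion molecule of endothelium, was the 1 called, in L + N against L − N at −1.09 (edgeR adjusted p = 0.011). Without L − N replicate 1 it was −0.97 with adjusted p = 0.0168, under the fold threshold, and without L + N replicate 2 it was lost too.

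Red blood cell markers summed to 1480, 118 and 956 FPKM in L − N, 56.9, 109 and 168 in L + N, 66.4, 111 and 59.6 in H − N, and 55.8, 601 and 402 in H + N, nearly all of it HBB. SLC4A1 did not exceed 3 counts in any library, and 4 of the 7 markers passed the filter. AHSP, which stabilizes alpha globin, was called in L + N against L − N, with 26, 3 and 18 reads in L − N and 0, 0 and 1 in L + N, and the call was lost without L − N replicate 3 or L + N replicate 1 or 2 (adjusted p up to 0.0739). For smooth muscle, all 7 markers were lower in L + N, H − N and H + N than in L − N, with medians of −1.53, −1.07 and −1.10, which were −0.74, −0.18 and −0.02 without L − N replicate 1. Their sums were 2810, 871 and 971 FPKM in L − N, 565, 615 and 501 in L + N, 409, 756 and 797 in H − N, and 728, 718 and 734 in H + N, with ACTA2 as the most abundant. ACTA2 (−1.76, edgeR adjusted p = 0.0329) and TAGLN (−1.50, edgeR adjusted p = 0.0203), both of the contractile apparatus, were called in L + N against L − N, and neither without L − N replicate 1 (−1 and −0.94). The part of these cells in the AQP1 levels was not tested.

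Lymphatic endothelial markers were lower than in L − N for 4 of 5 in L + N and for 5 of 5 on both high-fiber diets. CCL21 had the highest mean, and the sums were 374, 76.9 and 201 FPKM in L − N and 81.1 to 242 FPKM over the other groups. PDPN, a surface protein of lymphatic vessels, was called in H + N against L − N at −1.87 (edgeR adjusted p = 0.0296), and lost without L − N replicate 2 or 3 or H + N replicate 1 or 3 (adjusted p up to 0.113). Without L − N replicate 1 it was −2.09, and 1 of the 5 was called in H − N against L − N too.

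AQP4, the main water channel of the brain, lies at chr6:111407632-111422169 on the minus strand. Its 25 reads in all fell as 0, 4 and 0 in replicates 1 to 3 of L − N, 0, 5 and 1 in L + N, 3, 3 and 2 in H − N, and 2, 5 and 0 in H + N. AQP5, a channel of secretory epithelia, lies on chromosome 5 (chr5:15876527-15879608, plus strand), between AQP2 and AQP6. It had 37 reads in all, which fell as 5, 1 and 1 in L − N, 8, 2 and 1 in L + N, 0, 4 and 5 in H − N, and 3, 2 and 5 in H + N. AQP8, at chr3:21493564-21503778 on the minus strand and best known from secretory and digestive organs, had 1 read, in H − N replicate 2. For AQP4 and AQP5 all 4 groups overlapped, and no difference in these 3 genes was detectable at this depth. Of the 10 listed proteins that hold AQP4 at the membrane through the dystrophin complex, 9 were tested, with DAG1 as the most abundant at 31.7 to 43.6 FPKM, and edgeR called 0 in each contrast. Over the 8 contrasts, 0 to 2 of them were at an unadjusted p under 0.05 and 0 were called by DESeq2, while without L − N replicate 1 edgeR called 1 in H − N against L − N.

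AQP3 transports water and glycerol across epithelia, where it sits mostly in the basolateral membrane. The gene lies on chromosome 10 (chr10:33045374-33050285, plus strand), with AQP7 as the next aquaporin at chr10:33098746-33130245 on the same strand. Its CPM was 281, 19.0 and 49.5 in replicates 1 to 3 of L − N and 76.4, 64.3 and 49.2 in L + N. In H − N it was 171, 197 and 178, and in H + N 47.7, 162 and 62.6. The 3 H − N libraries lay close together and above all libraries of the other groups except L − N replicate 1, which was the highest of the 12. L − N held both the highest and the lowest library, a range of 14.8-fold, and in H + N replicate 2 stood apart from its 2 lower neighbors. Means were 116 ± 143, 63.3 ± 13.7, 182 ± 13.1 and 90.8 ± 62.2 CPM (SD, n = 3 each) for L − N, then L + N, then H − N, and last H + N. The within-group SD on the log2 scale was 1.10, larger than in 97.7% of the 14440 genes with a mean of at least 1 CPM (median 0.263), against 0.392 for AQP1, 0.381 for AQP9 and 0.265 for AQP11.

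**Figure D2:**
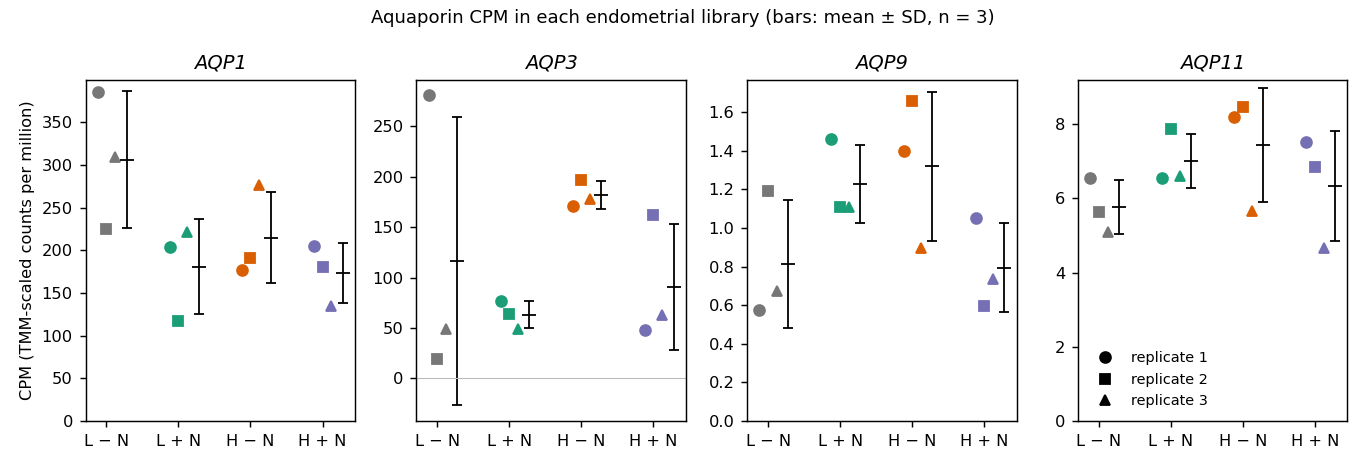
CPM of AQP1, AQP3, AQP9 and AQP11 in each library, by group, with marker shapes for the replicate number and bars for the mean ± SD (n = 3). For AQP3 the H − N libraries lie between 171 and 197 CPM, while L − N spans 19.0 to 281 CPM, and for AQP1 all L − N libraries lie above those of L + N and H + N.

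With all 12 libraries AQP3 was called in no comparison. The log2 fold change was 0.64 in H − N against L − N (−1 to 2.29; edgeR adjusted p = 0.64), −0.88 in L + N against L − N (−2.54 to 0.78; edgeR adjusted p = 0.482) and −0.36 in H + N against L − N (−2.01 to 1.29; edgeR adjusted p = 0.798). Between H + N and H − N it was −1 (−2.66 to 0.66; edgeR adjusted p = 0.733), although every H − N library lay above every H + N library. That value was −1.73 without H + N replicate 2 and −0.70 without H + N replicate 1. It stayed at −1 when L − N replicate 1 was left out, with a narrower interval (−1.98 to −0.03; edgeR adjusted p = 0.448, and up to 0.969 over the alternatives). High against low fiber gave 0.58 (−0.59 to 1.75; edgeR adjusted p = 0.585), NCG against no NCG −0.94 (−2.11 to 0.23; edgeR adjusted p = 0.318), and the interaction of fiber and NCG −0.12 (−2.45 to 2.20; edgeR adjusted p = 0.972). With all 12 libraries each of these intervals was wider than 2 log2 units and included 0.

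The values of the comparisons that use L − N moved with replicate 1 of that group. Without that library, H − N against L − N was 2.41 (1.22 to 3.61; edgeR adjusted p = 0.0162) and AQP3 was called, with the remaining L − N libraries at 19.0 and 49.5 CPM against 171 to 197. High against low fiber was then 1.47 (0.71 to 2.22; edgeR adjusted p = 0.0294) and called, and the test of any difference among the 4 groups gave adjusted p = 0.0398. In this fit 7.19% of the 15574 genes tested were called in H − N against L − N, 2.13% in high against low fiber and 11.12% in the test of any difference, more than with all libraries, so 1 of 4 aquaporins has to be read against a higher background. L + N against L − N turned from −0.88 to 0.89 (edgeR adjusted p = 0.263, and 0.216 to 0.672 over the alternatives) and H + N against L − N from −0.36 to 1.41 (edgeR adjusted p = 0.0993, and up to 0.984), the interaction went to −1.89 (edgeR adjusted p = 0.168), and NCG against no NCG went to −0.06. No other left-out library and no other setting led to a call of AQP3: over these 15 alternatives the lowest adjusted p was 0.52 in H − N against L − N, 0.513 for fiber and 0.281 for any difference. With 2 libraries left in L − N, their spread was taken from the model of all groups.

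**Figure D3:**
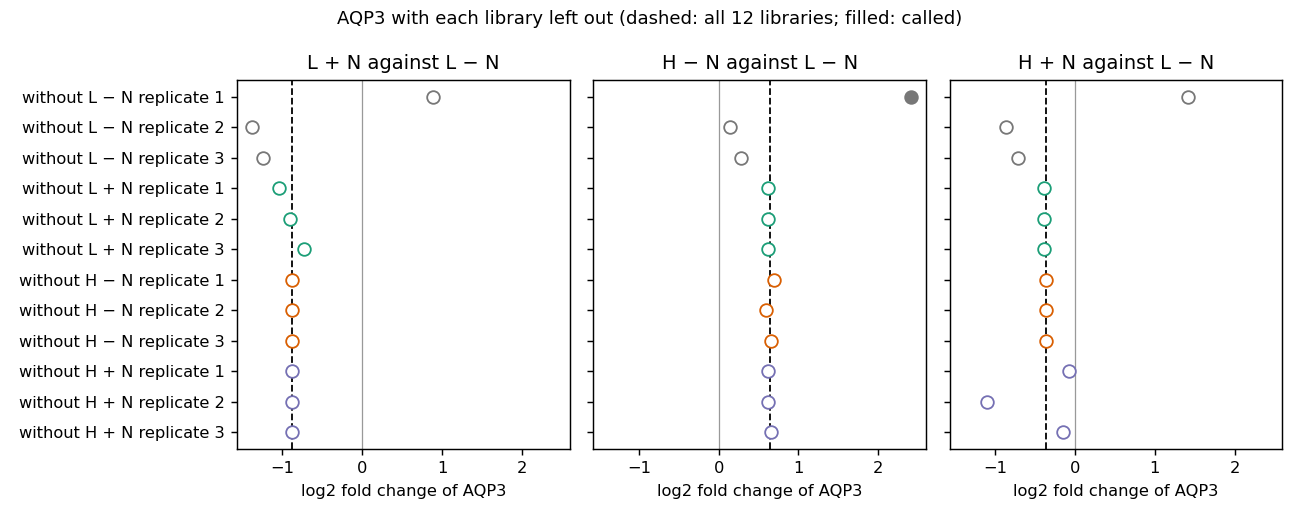
Log2 fold change of AQP3 in L + N, H − N and H + N against L − N with each library left out in turn (circles, filled where called; dashed line, all 12 libraries). Leaving out L − N replicate 1 moves the values to 0.89, 2.41 and 1.41, and only the middle one is called.

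Epithelial markers were considered beside AQP3. Of these, 8 of 9 were higher in H − N than in L − N, and 0 of 9 were higher in H + N than in H − N. They summed to 663, 687 and 446 FPKM in L − N, 740, 749 and 755 in L + N, 912, 719 and 994 in H − N, and 589, 643 and 560 in H + N. CDH1, the cadherin of epithelia, was called in the test of any difference (edgeR adjusted p = 0.0362), as was GRHL2 (0.0389). GRHL2, a transcription factor of epithelia, was the 1 called in a contrast, in H − N against L − N at 1.07 (edgeR adjusted p = 0.0249), which was kept without L − N replicate 1 (1.38, adjusted p = 7.59e-04) and lost without L − N replicate 2 or 3 or any H − N library (adjusted p up to 0.0996). Leaving out L − N replicate 1 also gave 1 call of 9 in each NCG group against L − N and 1 in the interaction.

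All 7 markers of ciliated epithelium passed the filter and were higher in L + N, H − N and H + N than in L − N, with medians of 0.53, 1.04 and 0.80 on the log2 scale against −0.02, 0.03 and 0.02 over all genes, and of 0.99, 1.53 and 1.17 without L − N replicate 1. Their sums were 66.7, 18.8 and 35.6 FPKM in L − N, 64.5, 57.9 and 48.8 in L + N, 63.4, 65.4 and 101 in H − N, and 40.0, 109 and 45.2 in H + N, with FOXJ1, the regulator of motile cilia, as the most abundant. As for AQP3, replicate 1 was the highest and replicate 2 the lowest library of L − N, and replicate 2 was the highest of H + N. In H − N the ciliated sum was highest in replicate 3, while AQP3 was highest in replicate 2 (171, 197 and 178 CPM in replicates 1 to 3). edgeR called 0 of the 7 in each contrast, with 0 to 3 at an unadjusted p under 0.05 and at most 1 called by DESeq2.

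Gland markers summed to 199, 592 and 988 FPKM in L − N, 278, 299 and 184 in L + N, 202, 139 and 883 in H − N, and 148, 165 and 109 in H + N, with SPP1 as the most abundant over these libraries (22.8 to 803 FPKM). For this list L − N replicate 1, which was the highest for AQP3, was the lowest of its group. ACP5, the iron-binding secretory protein of the porcine glands, was called against L − N in L + N (−1.44), H − N (−2.15) and H + N (−1.87; edgeR adjusted p = 0.04, 0.0214 and 0.0234), with −1.81, −2.53 and −2.25 without L − N replicate 1. Of the 5 gland markers 2 were higher in each of these comparisons, and without L − N replicate 1 edgeR called 1 higher beside 1 lower in each. The ACP5 calls were lost without L − N replicate 2 or 3, among others (adjusted p up to 0.145). The part of these cell types in the AQP3 levels was not tested.

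AQP9 takes up glycerol and urea and is found in liver and in leukocytes. It lies at chr1:113798380-113848452 on the minus strand, and 9 to 30 reads per library stand behind its values. Its CPM was 0.573, 1.19 and 0.672 in replicates 1 to 3 of L − N and 1.46, 1.11 and 1.11 in L + N. In H − N it was 1.40, 1.66 and 0.897, and in H + N 1.05, 0.598 and 0.736. L + N lay above all H + N libraries and overlapped with L − N through replicate 2 of that group, and H − N overlapped with every other group. On the low-fiber diet all 3 libraries with NCG were above the mean without NCG (0.812 ± 0.332 CPM, SD, n = 3), and on the high-fiber diet all 3 libraries with NCG were below the mean without NCG (1.32 ± 0.390 CPM, SD, n = 3). The log2 fold change was 0.59 in L + N against L − N (−0.32 to 1.5), −0.73 in H + N against H − N (−1.64 to 0.18), 0.70 in H − N against L − N (−0.22 to 1.61) and −0.63 in H + N against L + N (−1.53 to 0.28). The interaction of fiber and NCG was −1.32 (−2.61 to −0.04; edgeR adjusted p = 0.376, and 0.356 to 0.645 over the alternatives) and was not called, and leaving out replicate 1 of L − N gave −1.13, replicate 2 −1.70.

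Among the leukocyte markers, those of neutrophils summed to 25.9, 45.6 and 18.5 FPKM in L − N, 87.3, 135 and 12.7 in L + N, 22.9, 7.94 and 295 in H − N, and 5.18, 4.93 and 13.8 in H + N. All 8 passed the filter, and S100A12 had the highest mean (0.468 to 71.2 FPKM). Compared with L − N, 7 of 8 were higher in L + N, 8 of 8 in H − N and 1 of 8 in H + N, and edgeR called 0 in each contrast, with 0 to 4 at an unadjusted p under 0.05 and 0 to 4 called by DESeq2. With L − N replicate 1 left out, edgeR called 1 of the 8 in H − N against L − N. H − N replicate 3, which had the highest neutrophil sum, had the lowest AQP9 level of its group.

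All 8 macrophage markers were lower in L + N, H − N and H + N than in L − N, with sums of 767, 1860 and 1910 FPKM in L − N, 1090, 938 and 745 in L + N, 578, 588 and 382 in H − N, and 859, 864 and 654 in H + N, and C1QC as the most abundant. For H − N against L − N, 6 of 8 were called, among them CSF1R (−1.66), C1QC (−1.59), C1QA (−1.75) and C1QB (−1.50; edgeR adjusted p = 0.0225 to 0.0268), and without L − N replicate 1 these were −1.95, −1.91, −2.09 and −1.82. In that fit 6, 7 and 6 of the 8 were called in L + N, H − N and H + N against L − N, 5 for fiber and 6 for the interaction, beside 911, 1120, 948, 331 and 346 of all 15574 genes tested. In H + N against L − N 3 of 8 were called, led by CSF1R at −1.35 (edgeR adjusted p = 0.0284), and in L + N against L − N 1 of 8, the hemoglobin scavenger receptor CD163 at −1.57 (edgeR adjusted p = 0.0364). Each of these calls was lost when L − N replicate 3 was left out, with adjusted p up to 0.171 over all left-out libraries. With all 12 libraries, 2.91%, 3.58% and 3.99% of all genes were called in H − N, H + N and L + N against L − N. For T and NK cells, with sums of 39.4 to 128 FPKM, edgeR called 0 of 7 in each contrast, with at most 1 at an unadjusted p under 0.05 and at most 1 called by DESeq2. After leaving out L − N replicate 1, edgeR called 1 of the 7 on each high-fiber diet against L − N. The part of these cells in the AQP9 levels was not tested.

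AQP11 lies at chr9:12065550-12076339 on the plus strand. Its CPM was 6.56, 5.64 and 5.10 in replicates 1 to 3 of L − N, 6.55, 7.86 and 6.61 in L + N, 8.19, 8.46 and 5.66 in H − N, and 7.51, 6.84 and 4.66 in H + N. All 4 groups overlapped, and replicate 3 was the lowest library in all groups but L + N. It varied least of the 4 genes, with a 1.82-fold range over the 12 libraries. The largest difference between groups was 0.37 in H − N against L − N (−0.18 to 0.91; edgeR adjusted p = 0.388), and the interaction was −0.51 (−1.28 to 0.26; edgeR adjusted p = 0.559). With all 12 libraries the intervals between 2 groups lay within −0.77 to 0.91, while that of the interaction included −1, and without L − N replicate 1 that of H − N against L − N was −0.15 to 1.09.

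Taking the tested genes as a family, edgeR called 0 of 4 in the test of any difference among the groups, where 6.96% of all genes were called, with AQP1 as the 1 gene at an unadjusted p under 0.05 and 0 called by DESeq2. In L + N against L − N it called 0 of 4 beside 3.99% of all genes, and in H + N against L − N 0 of 4 beside 3.58%, each with AQP1 at an unadjusted p under 0.05 and 0 called by DESeq2. In H − N against L − N it was 0 of 4 beside 2.91%, with 0 at an unadjusted p under 0.05 and 0 called by DESeq2. For NCG against no NCG it was 0 of 4 beside 1.80%, with 1 (AQP1) and 0 by these measures, and for high against low fiber 0 of 4 beside 0.0261%, with 0 and 0. Over all 15351 genes tested, 4184 were at an unadjusted p under 0.05 in edgeR for any difference, 3628 for NCG and 2994 for fiber. Against L − N there were 4260 such genes for L + N, 3746 for H − N and 4215 for H + N.

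In H + N against H − N, H + N against L + N and the interaction, edgeR called 0% of the genes, while 1331, 719 and 1967 were at an unadjusted p under 0.05 and DESeq2 called 25, 2 and 187. Of the 4 aquaporins, edgeR had 0, 0 and 1 (AQP9) at an unadjusted p under 0.05 in these, and DESeq2 called 0. The median log2 fold change of the 4 genes against L − N was 0.51 for H − N, −0.24 for L + N and −0.20 for H + N, beside 0.03, −0.02 and 0.02 over all genes tested. For H + N it was −0.52 against H − N, where all 4 were lower, and −0.10 against L + N, both beside 0.01 over all genes. It was 0.07 for high against low fiber, −0.31 for NCG against no NCG and −0.32 for the interaction, beside 0.02, −0.03 and −0.01. These medians of 4 genes depended on single libraries. Leaving out L − N replicate 1 turned the median of L + N against L − N to 0.39 and took that of H + N against L − N to 0.00, of NCG to −0.11 and of the interaction to −0.87. The interaction gave −0.06 without L − N replicate 2 and −0.10 without replicate 3 of that group, and H − N against L − N gave 0.25 and 0.28. The median turned to 0.06 in H + N against L + N without H + N replicate 3, and to −0.04 for fiber without H + N replicate 1.

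**Figure D4:**
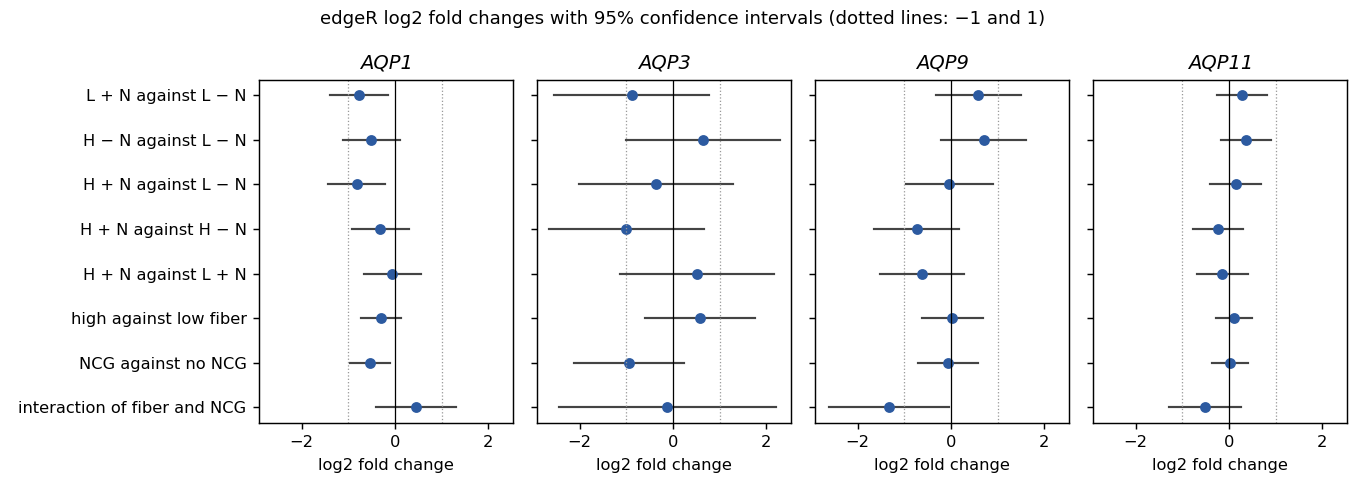
Log2 fold change of AQP1, AQP3, AQP9 and AQP11 in each comparison (points, edgeR, all 12 libraries) with 95% confidence intervals (lines), and dotted lines at −1 and 1. The intervals are widest for AQP3 and narrowest for AQP11, and those of AQP1 lie below 0 for each NCG group against L − N and for NCG against no NCG.

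The 4 genes did not vary alike. Over the 12 libraries, Pearson's r of log2 CPM between pairs of them ran from −0.358 (AQP1 and AQP9) to 0.548 (AQP9 and AQP11), and it was 0.210 for AQP1 and AQP3. Within groups it ran from −0.634 (AQP3 and AQP9) to 0.406 (AQP1 and AQP3), and was 0.322 for AQP9 and AQP11. Among 13566 genes with a symbol and a mean of at least 1 CPM, the gene most like AQP3 was CLDN10, a claudin of tight junctions (r = 0.959 over 12 libraries, 0.949 within groups). CLDN10 had 151, 20.2 and 54.7 CPM in L − N, 61.5, 54.3 and 39.8 in L + N, 91.3, 92.4 and 145 in H − N, and 44.3, 86.8 and 41.0 in H + N. It showed the same order of libraries as AQP3 within L − N and L + N, with the highest value in L − N replicate 1 and the lowest in L − N replicate 2.

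The gene most like AQP1 was HSD3B7, an enzyme of bile acid synthesis (r = 0.895), with 39.0, 32.9 and 36.8 CPM in L − N and 18.2 to 34.8 CPM in the other groups. For AQP11 it was ACCSL (r = 0.937) and for AQP9 C1H9orf85 (r = 0.828), each over the 12 libraries. These are the best of many genes, so high values are expected from the search alone, and they describe these libraries only.

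**Figure D5:**
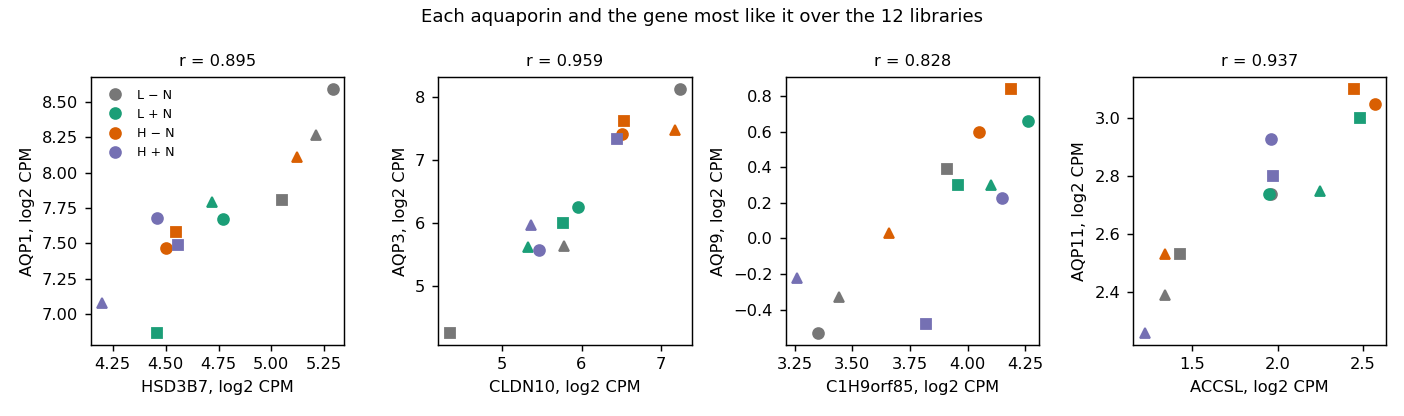
Log2 CPM of each tested aquaporin against that of the gene most like it (1 point per library, colored by group, with marker shapes for the replicate number). AQP3 and CLDN10 share their lowest library, L − N replicate 2, and their highest, L − N replicate 1.

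The other genes of water handling were read from lists. Of the genes annotated to vasopressin-regulated water reabsorption besides the aquaporins followed here, 39 were in the table, 35 were tested, and AVP, ARHGDIG and AQP2 did not exceed 3 counts in any library. DYNC2H1, a dynein motor chain, was the 1 called in L + N against L − N (1.36, edgeR adjusted p = 0.00825), in H + N against L − N (1.29, edgeR adjusted p = 0.0158) and in NCG against no NCG (1.04, edgeR adjusted p = 0.00578). The first of these was kept with every library left out in turn, the second was lost without L − N replicate 3 or H + N replicate 1 (adjusted p up to 0.0786), and the last fell just short of the fold threshold (0.94 to 0.99, adjusted p up to 0.0215) without any 1 of 4 libraries (L − N replicate 3, L + N replicate 2, H − N replicate 1, H + N replicate 2). This 1 of 35 stands beside 3.99% of all genes called in L + N and 3.58% in H + N against L − N, and 1.80% for NCG. The median of the 35 against L − N was −0.14 for H − N, −0.29 for L + N and −0.12 for H + N. CREB1 and RAB11B were also called in the test of any difference (edgeR adjusted p = 0.0313 and 0.0452). DYNLL1, a light chain shared by dyneins, was the most abundant at 129 to 224 FPKM.

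Of 18 genes listed as receptors and kinases around the cAMP route, 1 was called in a contrast. AVPR1A, a vasopressin receptor that signals mainly through calcium and not cAMP, fell for NCG against no NCG by 1.14 on the log2 scale (edgeR adjusted p = 0.0489). Its CPM was 5.35, 4.77 and 2.82 in L − N and 1.26, 1.75 and 1.57 in L + N, then 1.35, 3.19 and 4.14 in H − N and 1.58, 2.23 and 1.16 in H + N. The diets with NCG were thus low throughout and H − N spread over both ranges, and the call was lost in 10 of the 12 fits with a library left out, among them that without L − N replicate 1 (−1.05, adjusted p = 0.078). CREB1 and CREM, 2 transcription factors of this route, were called in the test of any difference (edgeR adjusted p = 0.0313 and 0.0325). PRKAR1A was the most abundant at 93.5 to 130 FPKM.

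All 6 steroid receptors were tested, since steroid hormones set the fluid of the uterus, and ESR1 was the most abundant (22.4 to 71.3 FPKM). ESR1 (1.25, edgeR adjusted p = 0.0161) and PGR (1.17, edgeR adjusted p just under the threshold) were called in H + N against L − N, both higher. Without L − N replicate 1, ESR1 was kept (1.37) and PGR was lost (1.03, adjusted p = 0.0914), as it was in 11 of the 12 fits with a library left out. The ESR1 call was lost without L − N replicate 3 or H + N replicate 1 (adjusted p up to 0.0801). The medians of the 6 were 0.26, 0.53 and 0.84 in L + N, H − N and H + N against L − N.

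Salt transport sets the osmotic gradient that water follows, and 19 of its 20 listed genes were tested. For H − N against L − N, 4 were called beside 2.91% of all genes, all higher, among them the ion pump subunit ATP1B1 (1.36, edgeR adjusted p = 0.0199), the cotransporter SLC12A2 (1.10, edgeR adjusted p = 0.03) and the anion exchanger SLC26A4 (5.89, edgeR adjusted p = 0.0326). ATP1B1 had 86.6, 123 and 72.7 CPM in L − N and 251, 221 and 253 in H − N, so all H − N libraries lay above the L − N libraries. SLC26A4 had 2, 4 and 4 reads in L − N, near the floor of 3 counts, and 424, 240 and 13 in H − N, so the size of its fold change is uncertain.

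SLC26A4 was the 1 called in H + N against L − N (5.99, edgeR adjusted p = 0.0264), with 336, 61 and 276 reads in H + N. Without L − N replicate 1, the H − N calls of these 3 genes were kept (1.30, 1.22 and 5.63), and 5 of the 19 genes were called beside 7.19% of all genes in that fit. Each was lost without L − N replicate 3 or H − N replicate 1, with adjusted p up to 0.131. The call of SLC26A4 in H + N was lost without L − N replicate 2 or 3 or H + N replicate 1 or 3. The median of the 19 was 0.51 in H − N against L − N.

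For cell volume sensing, 13 of 13 genes were tested and 1 was called, beside 2.91% of all genes in the same contrast. SLC6A6, a taurine transporter, fell in H − N against L − N by 1 (edgeR adjusted p = 0.0162), and without L − N replicate 1 it was −0.96, under the fold threshold. Of the 12 genes of glycerol handling, the other solute of AQP3 and AQP9, edgeR called 0 in each contrast, with 0 to 5 at an unadjusted p under 0.05 and at most 1 called by DESeq2. When L − N replicate 1 was left out, edgeR called 1 of the 12 in each of the 3 comparisons with L − N and in NCG against no NCG. For tight junctions, 12 of 13 were tested and edgeR called 0 in each contrast, with 0 to 2 at an unadjusted p under 0.05 and 0 called by DESeq2, and CGN was called in the test of any difference (edgeR adjusted p = 0.0459). A fit without L − N replicate 1 called 1 of the 12 in H − N against L − N.

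Hydrogen peroxide also passes through AQP3 and some other aquaporins, and 17 genes of its sources and sinks were tested, with GPX1 as the most abundant. Those called were lower in every case. GPX3, a secreted peroxidase, was −2.06 in H − N against L − N (edgeR adjusted p = 0.0495), −2.65 in L + N and −2.65 in H + N (edgeR adjusted p = 0.0167 and 0.0232), and −1.62 for NCG against no NCG (edgeR adjusted p = 0.028). SOD3, which makes peroxide outside the cell, was −1.36 in L + N and −1.79 in H + N against L − N and −1.09 for NCG (edgeR adjusted p = 0.0486, 0.0264 and 0.035), and NOX4, a peroxide-forming oxidase, −1.80 in H − N against L − N (edgeR adjusted p = 0.0162). Without L − N replicate 1, GPX3 in H − N (−1.77, adjusted p = 0.0679) and SOD3 in L + N and for NCG (−0.95 and −0.89, adjusted p = 0.109 and 0.0549) were lost, and the other calls were kept. Each was lost in at least 2 of the fits with a library left out.

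In the remaining marker lists, HOXA10, a patterning factor of the endometrial stroma, was called at 1.60 in L + N and 1.52 in H + N against L − N and at 1.08 for NCG against no NCG (edgeR adjusted p = 0.00825, 0.0158 and 0.00836). The intermediate filament VIM was called at −1.61 in H − N and −1.23 in H + N against L − N (edgeR adjusted p = 0.0118 and 0.0136). VIM ran against most of its list. Higher than in L − N were 5 of the 8 stromal markers for H − N (median 0.16) and 6 of 8 for H + N (median 0.52). For L + N 7 of 8 were higher (median 0.44). Leaving out L − N replicate 1 took these medians to 0.04, 0.41 and 0.28. HOXA10 in L + N was kept with every library left out. The VIM call in H − N was lost without replicate 1 of H − N. Both stromal calls in H + N were lost without replicate 3 of L − N or replicate 1 of H + N, and that of HOXA10 for NCG fell short of the fold threshold alone without replicate 3 of L + N (0.95, adjusted p = 0.0186) or replicate 1 of H + N (adjusted p = 0.0242). Stromal markers summed to 6080 to 11000 FPKM over the 12 libraries.

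Of 9 trophoblast markers 2 were tested, and ELF5 was called in H + N against L − N (1.59, edgeR adjusted p = 0.0432), a call lost in 8 of the 12 fits with a library left out. Of 5 mesothelial markers 2 were tested, CALB2 did not exceed 3 counts in any library, and edgeR and DESeq2 called 0 in each contrast, with 0 at an unadjusted p under 0.05. The lists hold 47 calls in the contrasts, of which 2 (HOXA10 and DYNC2H1 in L + N against L − N) were kept with each of the 12 libraries left out in turn, 38 were kept without L − N replicate 1, and 46 were kept by DESeq2. How far these genes and the aquaporins depend on one another was not tested.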

How the data were processed

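RNA of 12 endometrium libraries, 3 per group, was grouped by the deposited titles read with the design text of the series. The authors deposited counts, raw reads of each gene, and FPKM, which the authors computed from those counts with gene lengths and library totals. FPKM recomputed from the counts differed by at most 1.91e-05 percent. The submitters' processing notes name fastp 0.22.0, HISAT2 2.1.0, HTSeq 0.9.1 and Sscrofa11.1, and the strand used in counting was not stated. Coordinates are those of the deposited table.

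The counts were tested in R 4.3.3 with edgeR 4.0.16 (with limma 3.58.1): filterByExpr, TMM factors and a single quasi-likelihood model with 4 group means, with Benjamini-Hochberg adjustment over all genes tested. Fiber and NCG effects are contrasts of averaged groups, and for the interaction the NCG difference at low fiber was subtracted from that at high fiber. Log2 CPM used a prior count of 2. The code was tested on simulated data. Alternatives were DESeq2 1.42.0, RLE size factors, no filter on low counts, a replicate block and each library left out in turn. Replicates of a group gave a chi-square of 23.3 to 99.7 per gene, and the biological coefficient of variation was 0.269 with 8 residual degrees of freedom, so the spread between libraries limits precision more than depth. The floors of 3 counts cover counting error only, while the intervals of fold changes include the spread between libraries.

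Named genes are all 7 aquaporins, for each tested one the gene with the highest correlation of log2 CPM, at most 4 called genes per list by smallest adjusted p, and the most abundant gene of a list. The lists are other aquaporins, vasopressin-regulated water reabsorption (from the deposited pathway annotation), receptors and kinases of the cAMP route, steroid receptors, salt transport, cell volume sensing, glycerol handling, hydrogen peroxide sources and sinks, anchors of AQP4 and tight junction. Marker lists cover epithelium, uterine glands, ciliated epithelium, stroma, blood endothelium, lymphatic endothelium, smooth muscle, red blood cells, neutrophils, macrophages, T and NK cells, trophoblast and mesothelium. Members and lists were chosen with earlier results of these data known.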

Additional observations from a re-analysis of the deposited data

Results flagged for a closer look

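For AQP9 the effect of NCG pointed opposite ways on the 2 diets. All 3 L + N libraries lay above the L − N mean and all 3 H + N libraries below the H − N mean, and the log2 fold change of the interaction was −1.32. The edgeR test of this difference gave adjusted p = 0.376 (0.356 to 0.645 over the alternatives), so a difference between the diets was not shown, and 9 to 30 reads per library stand behind the values. Groups of 3 are too small for the test of a single library that stands apart from its group, so no such test was made.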

How the results depend on the processing

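With all 12 libraries edgeR called 0 of the 4 tested aquaporins in each of the 9 tests, and this held with RLE size factors, with no filter on low counts, with DESeq2 and with a replicate block. With a library left out, the count of aquaporins called ran from 0 to 1 for any difference, H − N against L − N and high against low fiber, where AQP3 was called without L − N replicate 1, and was 0 elsewhere. Of 512 alternative values of 32 aquaporin fold changes, 480 kept their direction and side of the threshold, 30 changed direction, all with a library left out, and 2 became called (AQP3 in H − N against L − N and for fiber). The lowest and highest log2 fold changes with a library left out were −1.38 to 0.89 for AQP3 in L + N against L − N. In H + N against L − N they were −1.11 to 1.41 for AQP3, −0.30 to 0.35 for AQP9 and −0.02 to 0.31 for AQP11. In H + N against L + N they were −0.30 to 0.09 for AQP1, −0.22 to 0.80 for AQP3 and −0.31 to 0.04 for AQP11. For fiber they were −0.10 to 0.23 for AQP9, for NCG −0.20 to 0.12 for AQP9 and −0.06 to 0.11 for AQP11, and for the interaction −1.89 to 0.38 for AQP3.

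Counts of genes called with a library left out ran from 4 to 1732 for any difference (1068 with all libraries), 143 to 911 for L + N (613), 0 to 1120 for H − N (446) and 1 to 948 for H + N (549) against L − N. They ran from 0 to 331 for fiber (4), 157 to 340 for NCG (276) and 0 to 346 for the interaction (0), and were 0 throughout for H + N against H − N and against L + N. The highest counts came without L − N replicate 1, except for NCG, where they came without L − N replicate 2. The 0 for H − N came without H − N replicate 1, with 3339 genes at an unadjusted p under 0.05, and the 1 for H + N without H + N replicate 1. The low counts of 4 for any difference, 143 for L + N, 6 for H − N and 4 for H + N came without L − N replicate 3. DESeq2 called 3324 for any difference, 936 in H − N and 1000 in H + N against L − N, 25 in H + N against H − N, 2 in H + N against L + N, 305 for fiber and 187 for the interaction. The cause was not tested.

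With the replicate number as a block, 477 genes were called for any difference, 254 in H − N against L − N and 1 for fiber, with no other count moved by over 1.5 times and 0 aquaporins called. The number does not pair animals: deviations from the group means correlated at −0.32 to 0.28 over the 18 pairs of libraries with the same number and at −0.32 to 0.28 over the others, and 3 of 12 libraries correlated best with their own number. Depth limits AQP4, AQP5 and AQP8, with 0 to 8 reads per library, while for AQP1, AQP3 and AQP11 the spread between the 3 libraries per group is the larger limit. For AQP9, with 9 to 30 reads per library, depth and this spread both limit the values, and which is larger was not tested. The paper describes endometrium taken from several sows per group, and the titles do not name the animal behind a library.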
